A study of Mus musculus with 8 samples.

Results

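Small nucleolar RNA (snoRNA) host genes were examined as a group of 8 non-coding genes, Gas5, Snhg1, Snhg3, Snhg5, Snhg6, Snhg8, Snhg12 and Snhg15, in splenic regulatory T cells (Tregs) sorted by surface TNFR2. The genes were chosen by name, not by their values, though earlier results of these data were known. They were looked up among the 20172 Ensembl identifiers of the table. A row was found for 7 of the 8, and all 7 passed the filter on low values (a mean normalized count of at least 10 over the libraries), which 13990 genes passed in all. Snhg1 was not analysed here. The annotation types all 8 as processed transcripts or lincRNAs and tags each as a host of non-coding RNA.

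The cells came from the spleen of adult female Foxp3 YFP-cre mice, in which a fusion of yellow fluorescent protein and Cre recombinase is made under the control of the Foxp3 locus, so that YFP marks cells that express Foxp3. No floxed allele and no treatment is named for either population, and both carried the reporter. CD4 T cells were enriched and YFP+ cells were sorted as TNFR2+ or TNFR2- Tregs, with 4 libraries of each population and no Foxp3-negative cells among the libraries. The labels do not say whether the 4 libraries of a population came from separate animals or pools, so p-values measure the spread between these libraries, which may be technical.

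In the nucleolus, snoRNAs guide the chemical modification of ribosomal RNA, and some are needed for cleavage of its precursor. Most mammalian snoRNAs are not transcribed from promoters of their own: they lie in introns of a host gene and are trimmed out of the excised intron, while the spliced host RNA follows a separate fate. Many non-coding hosts belong to the 5′ terminal oligopyrimidine (TOP) class, whose RNA starts with a C followed by a run of pyrimidines and whose translation is governed by the mTOR pathway, and spliced host RNAs such as Gas5 are known substrates of nonsense-mediated decay. Gas5 is known for its accumulation in growth-arrested lymphocytes.

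The libraries were total RNA libraries, and the deposited values are normalized counts per gene. They summed to 9576920 to 10295226 in TNFR2+ and to 10483291 to 11492762 in TNFR2- libraries, with no overlap. Estimated depth was 9090000 to 12120000 reads per library. Tnfrsf1b, which encodes TNFR2, was higher in TNFR2+ Tregs with no overlap (2501 ± 544 against 1321 ± 168 normalized counts, SD, n = 4 each). All 8 genes of a Treg marker list were detected, and 3 were higher in TNFR2+ Tregs and 0 lower (limma, adjusted p under 0.05), beside 4.52% of all tested genes called higher: Ikzf2 (log2 fold change 0.95, SE 0.21), Ctla4 (0.89, SE 0.13) and Cd3e (0.51, SE 0.11). By estimate 6 of the 8 markers were higher in TNFR2+ Tregs and 2 lower, Foxp3 and Il2ra. Foxp3 lay at 3126 ± 219 and 3664 ± 316 and Il2ra at 2742 ± 225 and 3482 ± 363 (SD, n = 4 each). Neither passed, and the groups did not overlap for Il2ra (log2 fold change -0.34, SE 0.11, limma adjusted p = 0.0860). Of 12 proliferation genes 8 were called higher and 0 lower, with Mki67 at 3834 ± 1014 against 577 ± 289, Birc5 at 287 ± 23.5 against 50.3 ± 23.9, Ccna2 at 139 ± 55.6 against 17.7 ± 18.3 and Ccnb2 at 107 ± 23.2 against 15.6 ± 9.56 (SD, n = 4 each). The summed level of 9 B cell markers was 3648 to 5762 in TNFR2+ and 1693 to 2716 in TNFR2- libraries and was mostly Ighm. Of 5 tested B cell markers 4 had a higher estimate in TNFR2+ Tregs and 1 lower. Only Ighm was called, higher in TNFR2+ Tregs (log2 fold change 1.27, SE 0.17, limma adjusted p = 0.000745). Respective means were 57.3 and 26.4 for Ighd, 38.7 and 24.7 for Cd79b, 57.5 and 55.4 for Ms4a1 and 39.4 and 53.7 for Ebf1. Cd79a, which was not tested, had means of 1.19 and 3.17. Of 8 cytotoxic lymphocyte markers 6 had a row, and the summed level was 110 to 196 in TNFR2+ and 78.4 to 132 in TNFR2- libraries. Nkg7 lay at 64.3 ± 19.3 against 7.83 ± 7.29 (SD, n = 4 each). Prf1 went the other way, at 6.92 ± 3.91 against 23.4 ± 18.2 with overlapping groups (SD, n = 4 each). Means in TNFR2+ and TNFR2- Tregs were 46.6 and 47.8 for Cd8b1, 6.95 and 9.57 for Cd8a, 12.4 and 4.88 for Klrb1c and 1.54 and 9.29 for Klrk1. Among myeloid markers 7 of 12 had a row, summing to 58.2 to 149 and 104 to 187, with Siglech at means of 34.0 and 62.9 and Cd68 at 37.9 and 44.7, and Csf1r was listed at 0 in all TNFR2+ libraries. The single erythroid marker with a row of 7 reached at most 12.1 in any library, and the single platelet marker of 5, Itga2b, spanned 12.2 to 221 in TNFR2+ and 31.2 to 178 in TNFR2- libraries. The part of these cells and of cycling in the differences below was not tested. In bulk samples, fewer cells of a type and less RNA per cell cannot be told apart.

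Gas5, whose spliced RNA is also known as a decoy of the glucocorticoid receptor, was the most abundant host gene. It made up between 49.0% and 57.4% of the summed normalized counts of the 7 hosts in each library. Compared per kilobase of annotated exon, the only scale on which the genes can be set side by side, Gas5 lay at 370 ± 50.1 normalized counts per kb in TNFR2+ and 434 ± 57.7 in TNFR2- Tregs (SD, n = 4 each). Snhg8 followed at 235 ± 68.9 and 314 ± 59.0, and its range overlapped that of Gas5 in both populations. In TNFR2+ Tregs the order went on with Snhg15 at 207 ± 17.5, Snhg5 at 195 ± 59.5 and Snhg12 at 143 ± 26.4 per kb. In TNFR2- Tregs Snhg12 came next at 216 ± 26.9, ahead of Snhg5 at 207 ± 56.1 and Snhg15 at 194 ± 27.5. These 3 genes overlapped each other's range in TNFR2- libraries, while in TNFR2+ libraries the range of Snhg12 (111 to 176 per kb) lay below that of Snhg15 (191 to 229 per kb). Snhg6 (40.2 ± 23.9 and 43.3 ± 7.89 per kb) and Snhg3 (24.7 ± 9.90 and 17.8 ± 8.27 per kb) were the lowest hosts. They overlapped in TNFR2+ libraries and not in TNFR2- libraries, where Snhg6 spanned 38.0 to 55.1 and Snhg3 9.51 to 25 per kb. The exon length was the union over all annotated transcripts, several of which retain introns, and for Snhg8 (853 bases) and Snhg12 (2402 bases) that union covered the whole gene, so levels per kb would rise if fewer transcripts were counted.

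**Figure D1:**
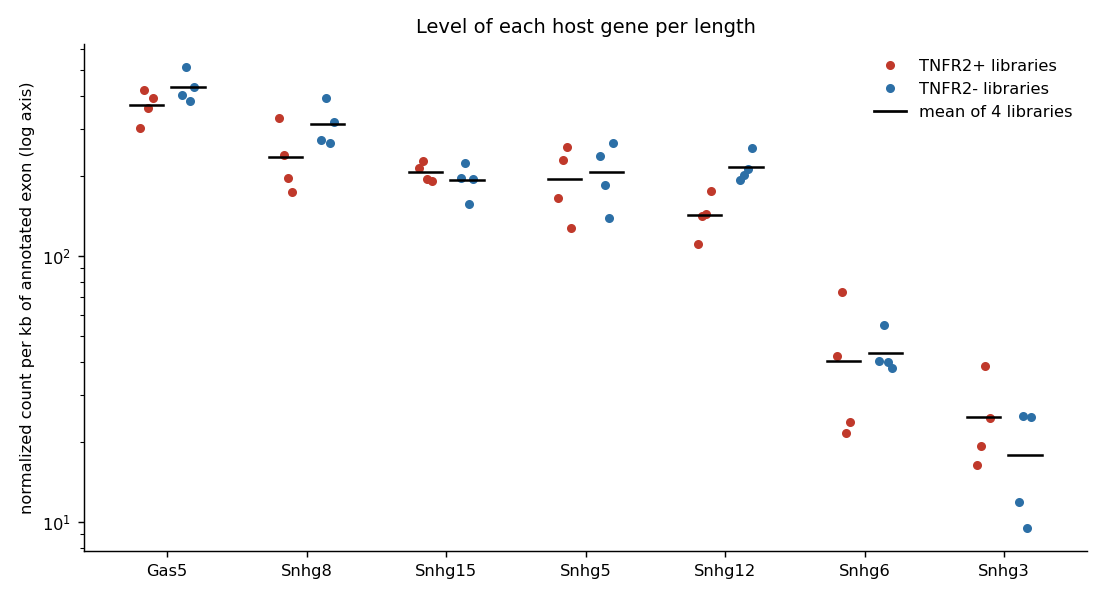
Normalized count per kilobase of annotated exon (log axis) for each host gene, ordered by the mean of the TNFR2+ libraries; points are single libraries (red TNFR2+, blue TNFR2-) and black bars are means of 4 libraries. Gas5 and Snhg8 are the highest, and Snhg6 and Snhg3 lie below the other 5 genes in both populations.

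The first bases of the hosts are shown because the TOP sequence is the feature by which this class of genes is usually recognised. RefSeq start windows (GRCm38.p6) were matched for 7 of the 8 genes, with 2 windows for Gas5, and Snhg6 had none. Each line gives 10 bases before and 30 from the annotated start on, 5′ to 3′ on the gene's strand, with a run of at least 5 C or T in capitals where one lies within 5 bases before to 15 bases after the start.
Gas5, chr1:161034591-161034630 (+): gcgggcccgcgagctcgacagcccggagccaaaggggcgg
Gas5, chr1:161035156-161035195 (+): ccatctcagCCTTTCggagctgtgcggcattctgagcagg
Snhg1, chr19:8723477-8723516 (+): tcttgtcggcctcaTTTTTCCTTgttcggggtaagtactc
Snhg3, chr4:132353657-132353696 (-): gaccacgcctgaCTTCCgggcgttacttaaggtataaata
Snhg5, chr9:88522868-88522907 (-): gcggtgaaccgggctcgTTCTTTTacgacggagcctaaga
Snhg8, chr3:123508307-123508346 (-): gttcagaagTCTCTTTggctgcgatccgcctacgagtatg
Snhg12, chr4:132308668-132308707 (+): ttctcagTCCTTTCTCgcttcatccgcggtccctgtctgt
Snhg15, chr11:6528731-6528770 (-): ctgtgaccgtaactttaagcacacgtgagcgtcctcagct
Such a run was present in 6 of the 8 windows, against 33.6% of 32851 RefSeq start windows searched in the same way on the gene's strand. The runs of Snhg1 and Snhg12 were the longest, with 9 bases each. Snhg15 and the upstream window of Gas5 held none. The letters CACGTG, the E-box bound by Myc, occurred in the 300 bases around the start of Snhg15 and in no other of the 8 windows, against 7.15% of all windows (the motif reads the same on both strands). A match is a description of letters and not of a start used in these cells.

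None of the 7 host genes passed the threshold between TNFR2+ and TNFR2- Tregs (limma, adjusted p under 0.05 over all tested genes), where 7.91% of all tested genes did (4.52% higher and 3.39% lower in TNFR2+ Tregs, which is 633 and 474 genes, or 904 and 309 with equal library sums). The estimate was lower in TNFR2+ Tregs for 5 hosts and higher for 2, and the median log2 fold change was -0.23, beside -0.01 over all tested genes. At an unadjusted p under 0.05 the count was 1 of 7, against 23.0% of all tested genes. The groups did not overlap for 1 host, Snhg12, against 15.4% of all tested genes. The sum over the 7 hosts was 2335, 2937, 2645 and 2584 normalized counts in TNFR2+ replicates 1 to 4 and 2954, 3472, 2692 and 3304 in TNFR2- replicates 1 to 4. The groups overlapped, since TNFR2+ replicate 2 lay above TNFR2- replicate 3.

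Snhg12, on chr4:132308623-132311024 (GRCm38, + strand), hosts H/ACA and C/D snoRNAs and has been studied mainly as a lincRNA of tumour cells. Its normalized counts were 266, 340, 347 and 422 in TNFR2+ replicates 1 to 4 and 466, 485, 512 and 611 in TNFR2- replicates 1 to 4. Every TNFR2+ library lay below every TNFR2- library. The mean was 344 ± 63.4 in TNFR2+ and 518 ± 64.6 in TNFR2- Tregs (SD, n = 4 each), 1.52-fold lower in TNFR2+ on the log2(value + 1) scale (log2 fold change -0.60, SE 0.19, 95% interval -1.01 to -0.20). The difference was larger than the spread between replicates, but did not pass after adjustment (limma adjusted p = 0.0689, exact permutation test, two-sided, p = 0.0286, the smallest that 4 against 4 libraries allow). The adjusted p ranged from 0.0551 to 0.129 over 10 alternative settings and from 0.0526 to 0.170 when single libraries were left out.

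Gas5, on chr1:161034422-161038539 (+ strand), gave 1143, 1580, 1357 and 1482 normalized counts in TNFR2+ replicates 1 to 4 and 1518, 1935, 1442 and 1626 in TNFR2- replicates 1 to 4. TNFR2- replicate 2 was the highest library and TNFR2+ replicate 1 the lowest, and the groups overlapped. Its log2 fold change was -0.23 (SE 0.14, 95% interval -0.54 to 0.08, limma adjusted p = 0.368), an interval that reaches from a lower level in TNFR2+ Tregs to a slightly higher one. The exact permutation test gave p = 0.143. With all libraries scaled to equal sums the log2 fold change of Gas5 was -0.10 (SE 0.13).

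Snhg8, a short host on chr3:123507552-123508404 (- strand) with Snora24 inside it, gave 282, 204, 168 and 149 normalized counts in TNFR2+ replicates 1 to 4 and 234, 337, 227 and 273 in TNFR2- replicates 1 to 4. In TNFR2+ Tregs 3 libraries lay below all TNFR2- libraries, and TNFR2+ replicate 1 lay above 3 of them. This gave a log2 fold change of -0.44 (SE 0.25, 95% interval -0.97 to 0.10, limma adjusted p = 0.321, exact permutation p = 0.143).

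Snhg5, on chr9:88521050-88522929 (- strand), hosts the Snord50 pair and is a known TOP RNA. It lay at 287, 400, 445 and 220 normalized counts in TNFR2+ replicates 1 to 4 and at 412, 322, 242 and 460 in TNFR2- replicates 1 to 4. Both populations held high and low libraries and spanned nearly the same range. The log2 fold change was -0.10 (SE 0.27, 95% interval -0.67 to 0.48, limma adjusted p = 0.869), and its sign was not stable: it was 0.03 with all libraries scaled to equal sums, 0.09 without TNFR2+ replicate 4 and 0.04 without TNFR2- replicate 4.

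Snhg15, on chr11:6525591-6528760 (- strand), is known as a short-lived, stress-responsive RNA. Its values were 292, 311, 265 and 260 normalized counts in TNFR2+ replicates 1 to 4 and 266, 306, 214 and 266 in TNFR2- replicates 1 to 4, the tightest TNFR2+ group among the hosts in relative terms. Its log2 fold change was 0.11 (SE 0.19, 95% interval -0.31 to 0.53, limma adjusted p = 0.796), and the groups overlapped throughout.

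Snhg6, on chr1:9941959-9944118 (- strand), hosts Snord87. It gave 48.1, 84.0, 24.8 and 27.2 normalized counts in TNFR2+ replicates 1 to 4 and 46.0, 63.1, 45.9 and 43.5 in TNFR2- replicates 1 to 4. The TNFR2+ libraries held both the highest and the lowest values. This gave a log2 fold change of -0.26 (SE 0.46, 95% interval -1.26 to 0.73, limma adjusted p = 0.787).

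Snhg3, on chr4:132348014-132353686 (- strand), hosts Snora73a and Snora73b and was the least abundant host. Its values were 16.1, 19.1, 38.2 and 24.2 normalized counts in TNFR2+ replicates 1 to 4 and 11.7, 24.7, 9.37 and 24.5 in TNFR2- replicates 1 to 4, which correspond to an estimated 8 to 39 reads per library. The log2 fold change was 0.49 (SE 0.60, 95% interval -0.79 to 1.78, limma adjusted p = 0.676), an interval that spans both directions.

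**Figure D2:**
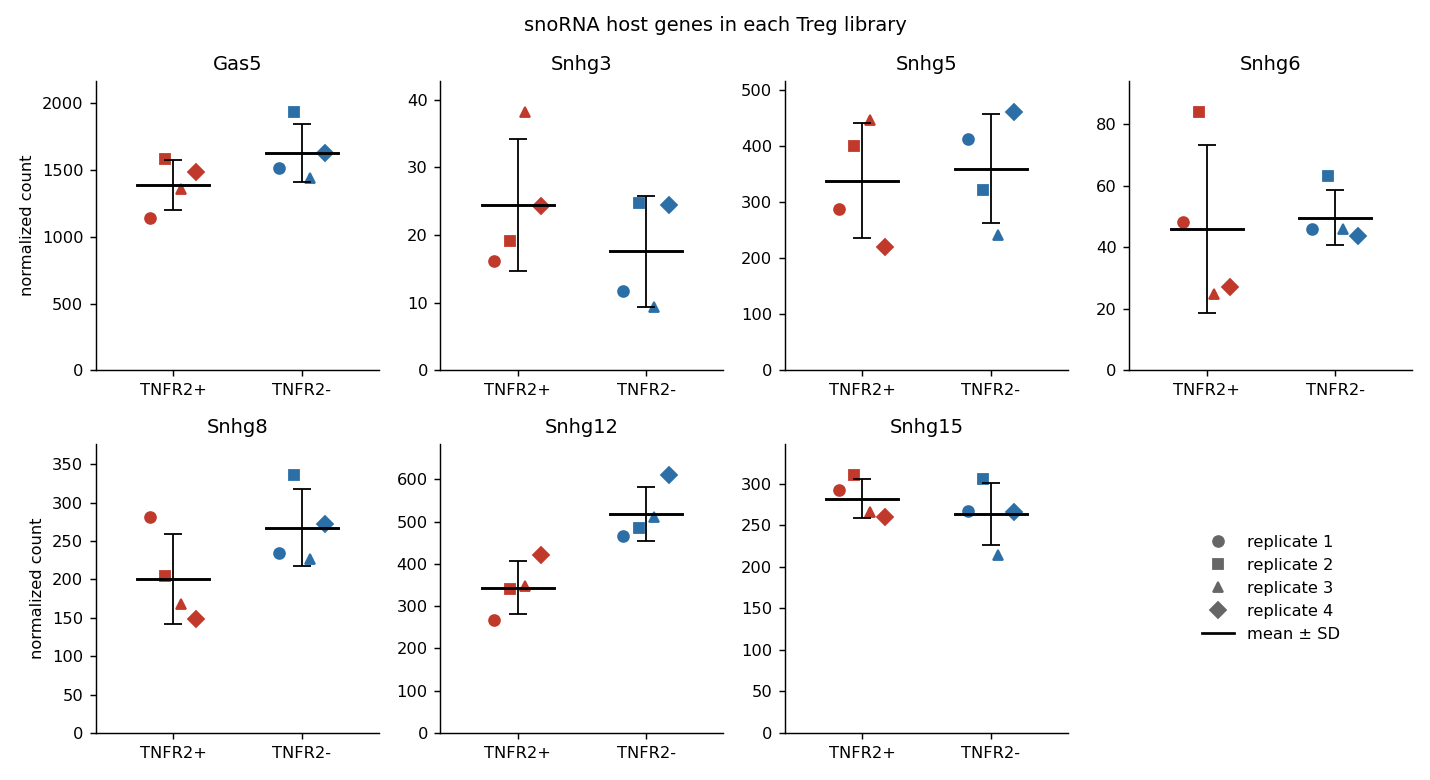
Normalized count (vertical axis, from 0, scaled separately for each gene) of the 7 host genes in the 4 TNFR2+ (red) and 4 TNFR2- (blue) libraries; symbols mark replicate numbers, black bars the mean and SD. Only the Snhg12 panel shows groups that do not overlap, with TNFR2+ libraries at 266 to 422 and TNFR2- libraries at 466 to 611.

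The snoRNAs that these hosts carry have genes of their own in the annotation. Of 29 snoRNA genes annotated inside the 8 hosts on the same strand, 17 had a row, 5 of them inside Snhg1, and 11 passed the filter on low values. C/D box snoRNAs guide methylation of ribose and carry a C box (TGATGA) near the 5′ end and a D box (CTGA) near the 3′ end; H/ACA snoRNAs guide the conversion of uridine to pseudouridine and end in ACA followed by 3 bases. Sequences from the GENCODE transcripts of GRCm38, with these boxes in capitals, are shown for Snord22, which passed the threshold, for Snord99 and Snord87, whose groups did not overlap, for Snora16a and Snora44, the other tested snoRNA genes of Snhg12, and for Snora9, the tested gene with the lowest estimate. They are Snord22 (chr19:8725866-8725991, + strand, inside Snhg1), Snord99 (chr4:132310691-132310764, + strand), Snora16a (chr4:132309464-132309600, + strand) and Snora44 (chr4:132309941-132310069, + strand) inside Snhg12, Snord87 (chr1:9942463-9942549, - strand, inside Snhg6) and Snora9 (chr11:6528033-6528165, - strand, inside Snhg15).
Snord22: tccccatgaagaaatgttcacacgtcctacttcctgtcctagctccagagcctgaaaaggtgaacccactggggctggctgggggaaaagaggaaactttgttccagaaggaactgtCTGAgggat
Snord99: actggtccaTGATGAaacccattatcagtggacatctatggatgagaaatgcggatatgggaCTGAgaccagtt
Snora16a: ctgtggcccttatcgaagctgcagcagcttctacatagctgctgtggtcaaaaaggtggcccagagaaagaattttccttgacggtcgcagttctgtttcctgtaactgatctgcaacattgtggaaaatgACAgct
Snora44: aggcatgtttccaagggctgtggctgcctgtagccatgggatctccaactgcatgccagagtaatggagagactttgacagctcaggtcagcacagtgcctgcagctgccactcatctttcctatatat
Snord87: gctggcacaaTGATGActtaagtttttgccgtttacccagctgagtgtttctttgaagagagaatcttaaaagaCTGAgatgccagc
Snora9: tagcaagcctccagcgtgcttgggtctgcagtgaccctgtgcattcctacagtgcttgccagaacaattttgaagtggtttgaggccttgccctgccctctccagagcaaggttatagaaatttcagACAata
The 6-base C box was found within the first 30 bases of 73.5% of the 98 genes named Snord in the annotation and not in those of Snord22, while CTGA started within the last 20 bases of 98.0%. ACA followed by 3 final bases ended 83.3% of the 42 genes named Snora, but not Snora44. The letters of Snord99, Snora16a and Snora44 were found whole in 3, 2 and 2 of the 10 annotated Snhg12 transcripts, those of Snord22 in 3 of 18 Snhg1 transcripts and those of Snora9 in 1 of 4 Snhg15 transcripts. Reads of a snoRNA and of a host transcript that retains it cannot be told apart, and values of both are uncertain to that degree. How much of the values of snoRNA genes in these total RNA libraries comes from mature snoRNA rather than precursor RNA was not tested. Snora9 also shares sequence with Gm23626 and Gm24438.

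Of the 11 snoRNA genes tested 1, Snord22, passed the threshold, lower in TNFR2+ Tregs, and 0 passed in the other direction, beside 3.39% of all tested genes called lower. At an unadjusted p under 0.05 the count was 4 lower and 0 higher, against 10.7% of all tested genes called lower. The estimate was lower in TNFR2+ Tregs for 10 of 11, with a median log2 fold change of -0.74. Without TNFR2- replicate 2 the median was -0.56 and 8 of 10 were lower. The groups did not overlap, with TNFR2+ libraries lower, for 3 of 11 (Snord22, Snord99 and Snord87), against 7.29% of all tested genes.

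Snord22, which the annotation names as a C/D snoRNA and which is the last of the snoRNA genes inside Snhg1, gave 314, 350, 540 and 500 normalized counts in TNFR2+ replicates 1 to 4 and 601, 1131, 642 and 704 in TNFR2- replicates 1 to 4. Every TNFR2+ library lay below every TNFR2- library, and TNFR2- replicate 2 was the highest of all. Its log2 fold change was -0.84 (SE 0.24, 95% interval -1.35 to -0.33, limma adjusted p = 0.0451, exact permutation p = 0.0286), 1.79-fold lower in TNFR2+ Tregs. The call was lost with equal library sums (adjusted p = 0.0680), without the intensity trend (adjusted p = 0.136) and with the replicate number as a block (adjusted p = 0.0511). It was also lost without TNFR2+ replicate 1, 2 or 4 (adjusted p = 0.124, 0.127 and 0.0508) and without TNFR2- replicate 2 or 4 (adjusted p = 0.129 and 0.0771). Direction held in all of these, with log2 fold changes of -0.97 to -0.64 when single libraries were left out.

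All 3 tested snoRNA genes of Snhg12 had a lower estimate in TNFR2+ Tregs, and none passed the threshold. Snord99 gave 18.7, 15.4, 17.3 and 13.6 normalized counts in TNFR2+ replicates 1 to 4 and 44.4, 106.5, 30.1 and 43.4 in TNFR2- replicates 1 to 4, with no overlap (log2 fold change -1.57, SE 0.51, limma adjusted p = 0.0824). Snora16a gave 33.9, 30.2, 51.5 and 48.2 in TNFR2+ and 65.6, 103.0, 45.8 and 58.8 in TNFR2- replicates 1 to 4 (log2 fold change -0.70, SE 0.40, limma adjusted p = 0.328). Snora44 gave 6.85, 15, 16.5 and 16.1 in TNFR2+ and 12.5, 38.1, 27.7 and 37.5 in TNFR2- replicates 1 to 4 (log2 fold change -0.99, SE 0.61, limma adjusted p = 0.368). In Snora16a and Snora44 a single TNFR2- library, replicate 3 and replicate 1 respectively, fell within the range of the TNFR2+ libraries. These values share sequence with Snhg12 itself and are not independent of its difference.

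Snord87, inside Snhg6, gave 24.9, 15.5, 27.2 and 31.5 normalized counts in TNFR2+ replicates 1 to 4 and 38.5, 87.4, 42.3 and 47.2 in TNFR2- replicates 1 to 4. The groups did not overlap, but the difference did not pass (log2 fold change -1.05, SE 0.46, 95% interval -2.05 to -0.05, limma adjusted p = 0.193), and no Snhg6 transcript held its whole sequence. Snora9, inside Snhg15, was listed at 0 in 3 TNFR2+ libraries and at 9.94 in replicate 4, against 8.56, 45.1, 23.7 and 29.6 in TNFR2- replicates 1 to 4. Its log2 fold change of -3.72 (SE 1.1, limma adjusted p = 0.0574) depends on the pseudocount and ranged from -4.45 to -2.12 over the alternatives with all libraries and from -4.59 to -3.41 with single libraries left out. It passed without a filter on the mean (adjusted p = 0.0358) and without TNFR2+ replicate 4 (adjusted p = 0.0270).

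The pair inside Snhg3, Snora73a and Snora73b (the U17 snoRNAs, needed for cleavage of the ribosomal RNA precursor), differed from each other at 7 of 205 positions, so their reads cannot be told apart with certainty. Snora73a lay at 296 ± 28.5 and 360 ± 105 normalized counts and Snora73b at 258 ± 23.8 and 321 ± 151 in TNFR2+ and TNFR2- Tregs (SD, n = 4 each). Their log2 fold changes were -0.25 (SE 0.22, limma adjusted p = 0.542) and -0.21 (SE 0.28, limma adjusted p = 0.702). TNFR2- replicate 2 held the highest value of both, 513 and 539. The other tested genes lay near the floor: Snord80 (log2 fold change -0.74, SE 0.74) and Gm22357 (-0.17, SE 1.31) inside Gas5, and Snora24 (0.06, SE 1.29) inside Snhg8, with values of 0 to 38.0 normalized counts and intervals spanning both directions.

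**Figure D3:**
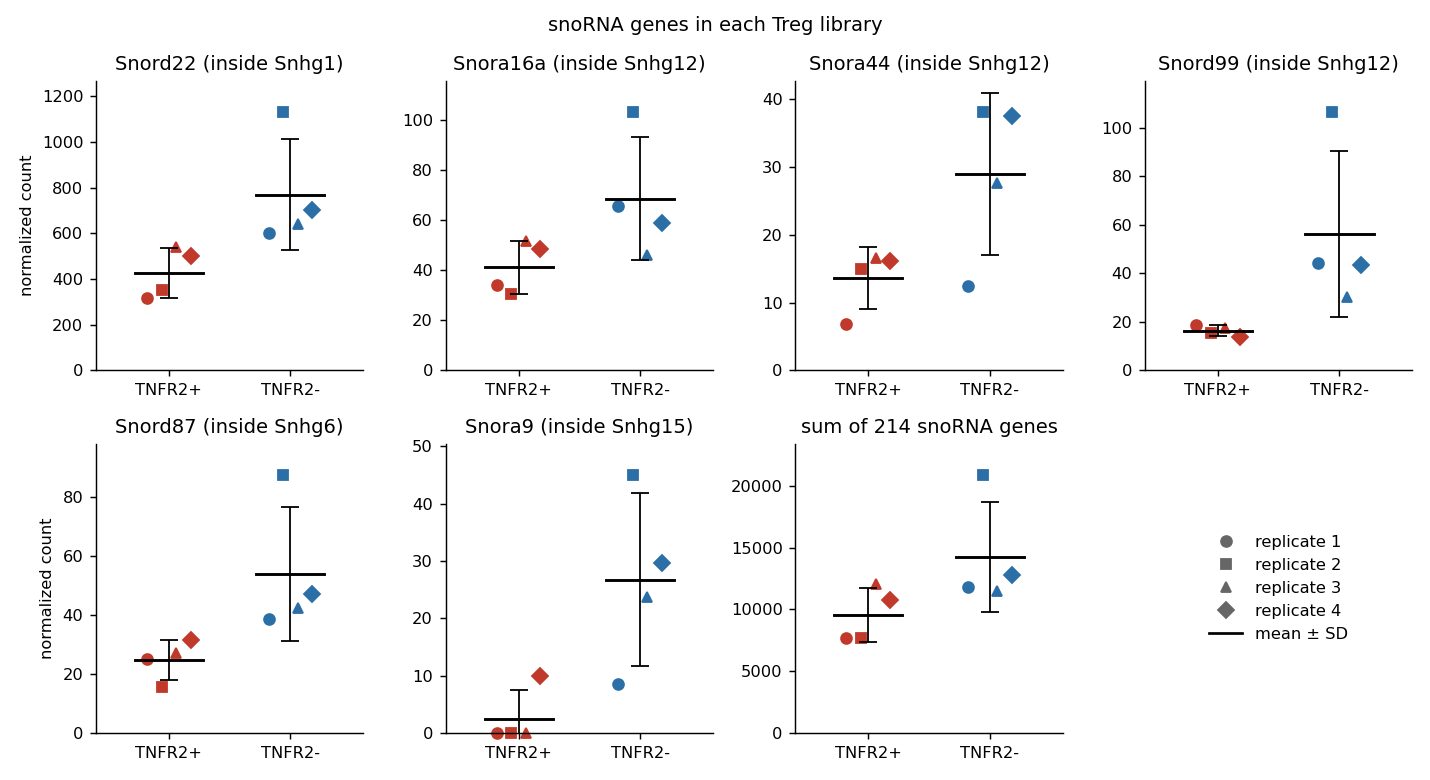
Normalized count (vertical axis, from 0, scaled separately) of 6 snoRNA genes inside the hosts and of the sum over all 214 snoRNA genes, in 4 TNFR2+ (red) and 4 TNFR2- (blue) libraries; symbols mark replicate numbers, black bars the mean and SD (the lower SD bar of Snora9 is cut at 0). TNFR2- replicate 2 is the highest library in all 7 panels, and Snord22, Snord99 and Snord87 show groups that do not overlap.

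Lower estimates were also frequent over snoRNA genes in general. Over all 214 snoRNA genes with a row, 100 passed the filter, 86 of them with a lower estimate in TNFR2+ Tregs, beside 50.7% of all tested genes, and the median log2 fold change was -0.63. The threshold was passed by 1, Snord22, beside 3.39% of all tested genes called lower. At an unadjusted p under 0.05 the count was 22 lower and 0 higher, beside 10.7% of all tested genes called lower. Their summed normalized counts were 7658, 7717, 12063 and 10740 in TNFR2+ replicates 1 to 4 and 11808, 20888, 11449 and 12755 in TNFR2- replicates 1 to 4. TNFR2- replicate 2 stood apart from the other libraries, and TNFR2+ replicate 3 lay above TNFR2- replicates 1 and 3, so the groups overlapped. Without TNFR2- replicate 2 the median was -0.40, 75 of 95 were lower and 0 passed. These counts were not taken under other scalings. For the snoRNA genes inside hosts the median was -0.79 to -0.47 over the alternatives with all libraries. Why TNFR2- replicate 2 stood apart was not tested.

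Some hosts share their start region with a protein-coding gene. Slc3a2, which encodes the CD98 heavy chain of amino acid transporters, starts 106 bases from Snhg1 on the opposite strand. It gave 3216, 3360, 3813 and 2850 normalized counts in TNFR2+ replicates 1 to 4 and 2623, 2247, 2461 and 1864 in TNFR2- replicates 1 to 4, with no overlap. It was higher in TNFR2+ Tregs (log2 fold change 0.53, SE 0.13, limma adjusted p = 0.0290), and the call was lost without the intensity trend (adjusted p = 0.136), without TNFR2+ replicate 1, 2 or 3 (adjusted p = 0.0634, 0.0809 and 0.0937) and without TNFR2- replicate 2 or 4 (adjusted p = 0.0736 and 0.0650). Snord22, inside Snhg1, and Slc3a2 thus had estimates of opposite sign, and the difference between them was not tested.

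Rcc1, the exchange factor of the GTPase Ran, overlaps Snhg3 on the same strand with starts 81 bases apart, and the genes can share reads. Rcc1 lay at 104 ± 34.6 in TNFR2+ and 64.0 ± 12.9 normalized counts in TNFR2- Tregs (SD, n = 4 each, log2 fold change 0.66, SE 0.33, limma adjusted p = 0.254). Zbtb37, which encodes a zinc finger protein and overlaps Gas5 on the opposite strand with starts 427 bases apart, lay at 357 ± 92.8 and 409 ± 55.8 (log2 fold change -0.22, SE 0.21, limma adjusted p = 0.587). Mcmdc2, a meiotic gene that overlaps Snhg6 on the opposite strand, lay at 164 ± 58.9 and 219 ± 138 (log2 fold change -0.32, SE 0.37, limma adjusted p = 0.664), a sign that turned to 0.06 without TNFR2- replicate 3. None of these 3 differences passed the threshold, and the groups overlapped in each, for Rcc1 through TNFR2+ replicate 1 at 82.2 and TNFR2- replicate 3 at 82.3.

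**Figure D4:**
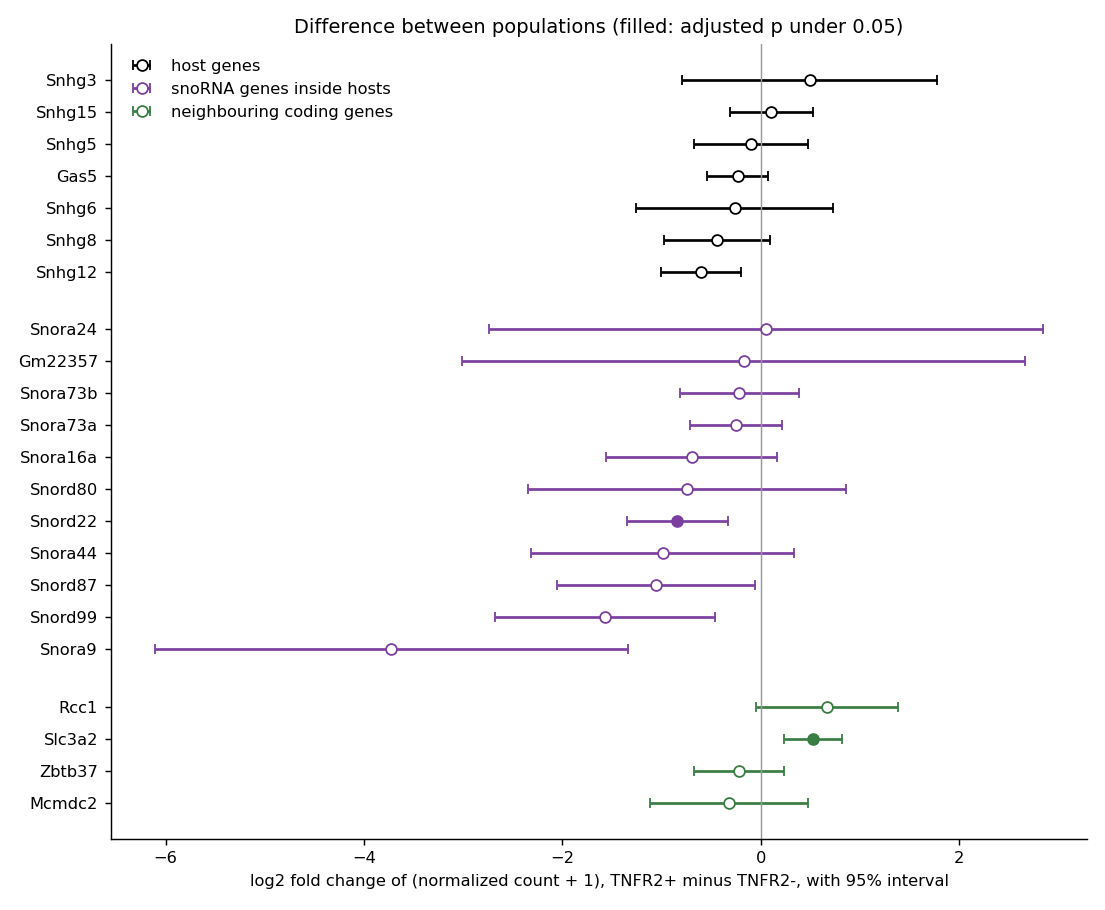
Log2 fold change of (normalized count + 1), TNFR2+ minus TNFR2-, with its 95% interval, for the 7 host genes (black), the 11 tested snoRNA genes inside hosts (purple) and the 4 neighbouring coding genes (green); filled points passed the adjusted threshold. Snord22 at -0.84 and Slc3a2 at 0.53 are the filled points, and the Snhg12 interval of -1.01 to -0.20 has an unfilled point.

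Other non-coding snoRNA hosts gave no call either. Of 59 annotated, 25 had a row and 18 were tested: 0 passed the threshold (limma), beside 7.91% of all tested genes. At an unadjusted p below 0.05 the count was 1 in each direction, beside 23.0% of all tested genes, and the median log2 fold change was -0.24. Snhg14, the long host of the imprinted Prader-Willi region, lay at 586 ± 225 and 924 ± 292 normalized counts in TNFR2+ and TNFR2- Tregs (log2 fold change -0.71, SE 0.30, limma adjusted p = 0.173). Cct6a, a chaperonin gene whose locus the annotation types as a processed transcript, lay at 999 ± 132 and 1100 ± 197 (log2 fold change -0.13, SE 0.17, limma adjusted p = 0.705).

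Protein-coding hosts, of which 205 of 258 were tested, had called genes in both directions: 14 were higher and 10 lower in TNFR2+ Tregs (11.7% in all, beside 7.91% of all tested genes, of which 4.52% higher and 3.39% lower). With equal library sums the split was 20 higher and 4 lower, and the median log2 fold change of -0.06 turned to 0.07. Among the called genes the largest changes upward were those of Top2a, the topoisomerase of dividing cells (1.66, SE 0.34, limma adjusted p = 0.00909), Maged2 (1.47, SE 0.31), the kinesin gene Kif13a (1.45, SE 0.18) and the condensin subunit Ncapd2 (1.31, SE 0.26). The largest downward were those of Nup210l (-2.95, SE 0.54, limma adjusted p = 0.00458), Prrg1 (-1.94, SE 0.49), the apoptosis inhibitor Aven (-1.62, SE 0.27) and Dirc2 (-1.04, SE 0.29). Top2a and Ncapd2 are genes of the cell cycle, and rose as the proliferation genes given above did, a list that also holds Top2a.

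Related lists are set beside the 7.91% of all tested genes that passed the threshold and the 23.0% at an unadjusted p below 0.05. Of 23 tested genes of snoRNP core and assembly 0 passed (limma, with 1 in each direction at an unadjusted p below 0.05), with a median of 0.15. Nop56, a core protein of C/D snoRNPs, lay at 1642 ± 103 and 2418 ± 535 (log2 fold change -0.53, SE 0.16, limma adjusted p = 0.0574) and passed without TNFR2- replicate 3 (-0.69, adjusted p = 0.00501), while its partner Nop58 lay at 1234 ± 135 and 1114 ± 183 (0.16, SE 0.15, limma adjusted p = 0.590). Of 36 ribosome biogenesis factors 0 passed (1 higher and 2 lower unadjusted, median 0.00), with nucleolin (Ncl) at 14764 ± 1158 and 15358 ± 1033 and nucleophosmin (Npm1) at 5384 ± 722 and 4801 ± 1168. Of 81 cytosolic ribosomal protein genes, which are the largest class of TOP genes, 0 passed (2 higher and 10 lower unadjusted), 66 had a lower estimate in TNFR2+ Tregs and the median was -0.12. That direction depended on the scaling, with a median of 0.01 with equal library sums and with quantile normalization, and on TNFR2- replicate 4, without which it was 0.02. Rpsa lay at 25408 ± 2064 and 25106 ± 6898 and Rpl13a at 14700 ± 1711 and 19901 ± 6228 (log2 fold change -0.40, SE 0.17, limma adjusted p = 0.186). Rpsa, Rpl13a, Nop56, Nop58 and Ncl are also among the protein-coding snoRNA hosts, so these lists share genes.

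Among 22 factors of nonsense-mediated decay 1 was higher and 0 lower (median -0.02), beside 4.52% and 3.39% of all tested genes. Gspt1, the release factor eRF3a, lay at 1023 ± 104 and 704 ± 83.3 normalized counts (log2 fold change 0.54, SE 0.15, limma adjusted p = 0.0400). That call was lost without the filter (adjusted p = 0.0510), without the intensity trend (0.111) and with the replicate number as a block (0.0665). It was also lost without TNFR2+ replicate 1, 2 or 3 (0.105, 0.105 and 0.114) and without TNFR2- replicate 1, 2 or 3 (0.0915, 0.0634 and 0.0712). The kinase Smg1, which phosphorylates UPF1, lay at 6161 ± 339 and 7608 ± 309 with no overlap (log2 fold change -0.31, SE 0.09, limma adjusted p = 0.0583). The endonuclease Smg6 lay at 2468 ± 711 and 1913 ± 309 (log2 fold change 0.34, SE 0.19, limma adjusted p = 0.306). Of 16 tested genes of the TOR and Myc pathway 0 passed (0 higher and 3 lower unadjusted, median -0.03), with Larp1, the TOP RNA binding protein, at 2164 ± 372 and 3072 ± 562 (log2 fold change -0.50, SE 0.16, limma adjusted p = 0.0761) and Rictor at 1294 ± 120 and 1808 ± 305 (-0.47, SE 0.15, limma adjusted p = 0.0688).

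**Figure D5:**
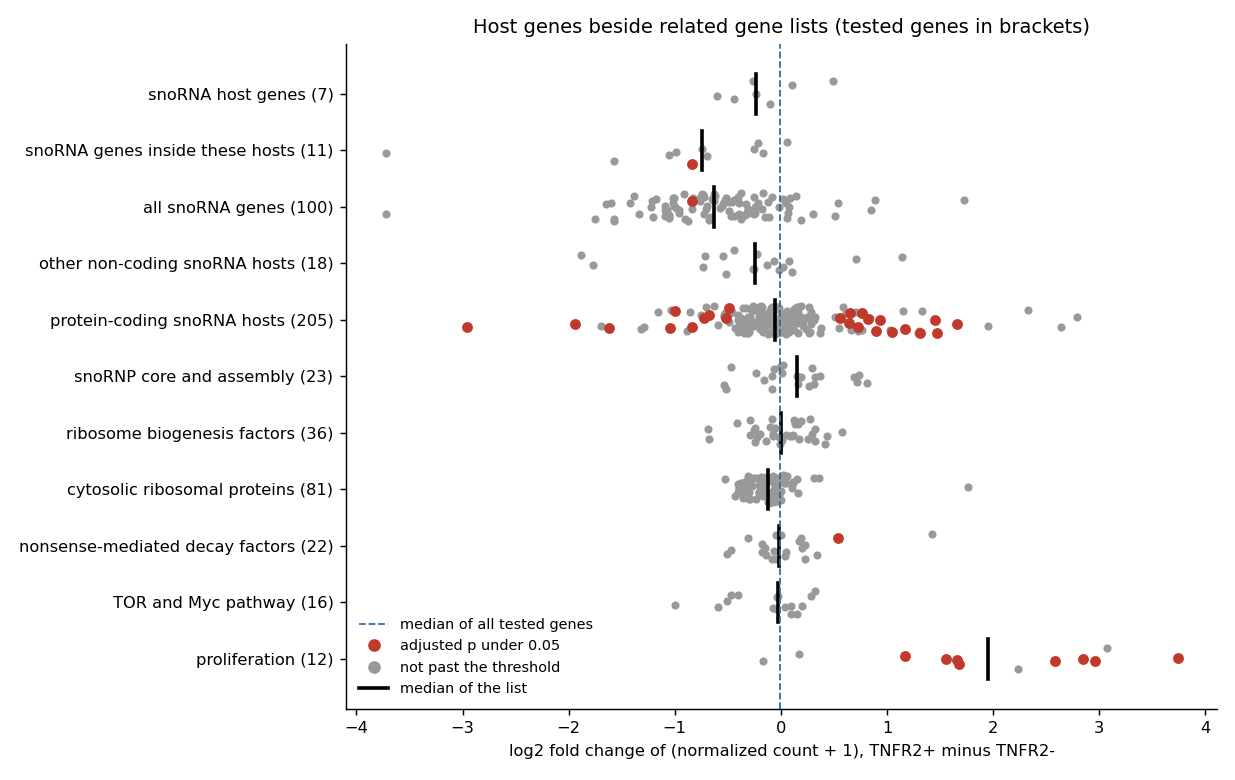
Log2 fold change of (normalized count + 1), TNFR2+ minus TNFR2-, of every tested gene of the host genes and 10 related lists; red points passed the adjusted threshold, black bars are list medians and the dashed line is the median of all tested genes (-0.01). The host genes (median -0.23) hold no red point, the snoRNA genes lie mostly to the left of the line, and 11 of the 12 proliferation genes (median 1.96) lie to the right.

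The genes whose log2 values ran closest to the mean standardized level of the 7 hosts over the 8 libraries, among 10240 genes with a mean of at least 50, were Hnrnpc (Pearson r = 0.955), Tbxa2r (0.941), Gbp7 (0.940), Alg1 (0.934) and Thoc3 (0.928). The 8 points share library and scaling, and the top of so long a ranking is high for any pattern. Hnrnpc, which encodes an RNA-binding protein of nascent transcripts, lay at 2560 ± 180 and 2662 ± 185 normalized counts, and Tbxa2r, the thromboxane receptor, at 43.2 ± 17 and 86.3 ± 41.1 (SD, n = 4 each). All 5 genes had overlapping groups.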

How the data were processed

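Per the labels and the methods, the authors used a stranded total RNA kit, removed adapters, quantified transcripts of Ensembl GRCm38 by salmon 1.3.0 and scaled counts in DESeq2 1.28 (R 4.0). The deposited signal is that normalized count per gene, not on a log scale. How transcripts were summed to genes is not given in the sources used here. Identifiers were matched to GENCODE M21 (20008 of 20172). Low values lay on whole steps (within 0.1) in 68.5% to 96.0% of cases in genes with 1 long transcript only, against 20% by chance, so a depth was estimated but a count model was not used. Values were taken as log2(value + 1) and every gene averaging 10 or more was tested with limma 3.58.1 in R 4.3.3 (intensity trend, two-sided, Benjamini-Hochberg over all 13990 genes, threshold 0.05). The exact permutation test took all 70 relabellings. Tested on simulated data, the script recovered changes of known size. Those changes were larger than any host estimate here, so the simulation does not measure power for the hosts. snoRNA genes were those annotated inside a host on its strand, and neighbours were coding genes that overlap a host or start within 1000 bases of it. In each list the text names up to 4 called genes a direction, or the 2 most abundant where fewer than 2 passed. From the cell type markers, Foxp3, Il2ra, Cd79a, Cd79b, Ighd, Ebf1, Cd8a, Prf1, Klrb1c, Klrk1 and Csf1r were named after their values were seen. Shared sequence was searched with blastn 2.17.0 (at least 95% identity over 50% of the transcript searched with). Alternatives covered scaling, pseudocount, filter, variance moderation, a replicate block and leaving out each library. Members and lists were chosen with earlier results of these data known.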

Additional observations from a re-analysis of the deposited data

Results flagged for a closer look

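In groups of 4 libraries, 6 of 54 sets of values held a library whose gap to the nearest of the others took up more of the whole range than Dixon's test allows. Chance alone gives such a gap in about 1 of 20 groups, and no explanation was tested. TNFR2- replicate 2 held 63.1 normalized counts of Snhg6, with the next library at 46.0. Its sum over all snoRNA genes, 20888 against 12755 in the next library, stood apart too. TNFR2+ replicate 2 held 13.7 normalized counts of Snord80, with the next at 7.93. TNFR2+ replicate 1 held 6.85 of Snora44, below 15 in the next lowest. TNFR2+ replicate 4 held 9.94 of Snora9, which was listed at 0 in the other 3. TNFR2- replicate 3 held 425 of Mcmdc2, with the next at 162.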

How the results depend on the processing

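Over 10 alternatives with all libraries and 8 with a library left out, 0 host genes passed the threshold. Their median log2 fold change was -0.23 to -0.10 and -0.30 to -0.07, and Gas5, Snhg3, Snhg6, Snhg8, Snhg12 and Snhg15 kept their sign in every fit; Snhg3 and Snhg6 were below the filter at a mean of 50. Signs turned for Snhg5 (0.032 with equal sums and -0.27 to 0.090 with a library left out), Snora24 (-0.36 with array weights and -0.92 to 1.05), Gm22357 (-1.28 to 0.88), Snora73b (-0.43 to 0.070) and Mcmdc2 (-0.53 to 0.057); the cause was not tested. The count of snoRNA genes inside hosts (1 in the report) was 0 with equal sums and without an intensity trend, 2 without a filter, and 0 to 1 with a library left out. The count of all genes (1107) was 465 without a trend and 636 to 1324 with a library left out, with 636, 693 and 711 without TNFR2+ replicate 2, TNFR2+ replicate 3 and TNFR2- replicate 2. For protein-coding hosts the count (24) was 8 without a trend and 12 to 28, with 12 and 15 without TNFR2+ replicates 2 and 3, and the median 0.071 with equal sums and -0.0053 with quantile normalization. For snoRNP genes the count (0) was 1 with equal sums (Ruvbl2) and with array weights (Nop56), 0 to 1 with a library left out, and the median 0.28 with equal sums. For decay factors the count (1) was 2 with a minimum mean of 50 and with array weights, 0 without a filter and without a trend, and 0 to 1. For ribosome biogenesis factors the count (0) was 1 with quantile normalization, and for ribosomal proteins 0 to 1 with a library left out. Equal sums moved the median of all genes to 0.12. Whether the replicate numbers pair the libraries is not known. Deviations of same-numbered libraries correlated at -0.0386 to 0.000542, which does not settle whether they share animals or sort days. With the number as a replicate block the counts were 1183 for all genes, 0 for snoRNA genes inside hosts (Snord22, adjusted p = 0.0511), 0 for decay factors, 2 for ribosomal proteins and 0 for the hosts (Snhg12, adjusted p = 0.0603). Snhg3 rests on an estimated 8 to 39 reads per library and 100 of 214 snoRNA genes passed the filter; the part of depth in the missing calls was not tested.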
